A study of Mus musculus with 20 samples.

Results

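miR-143 and miR-145 were measured by 2 of the 200 probes of a mouse miRNA DNA chip. Both were chosen by name, as the pair of miRNAs made from a single cluster that is known from smooth muscle. They were followed in Lung, Liver, Kidney, Heart and Spleen of klotho(-/-) mice and of wild-type littermates, all male and 5 weeks old. Each of the 10 groups of genotype and tissue held 2 arrays, 20 arrays in all, and by the legend of the study these came from 2 different individual mice. The klotho(-/-) mouse is a model of early aging. The deficiency is carried in the germ line, so no tissue was altered on its own. The chip measured miRNAs only, and the loss of klotho mRNA could therefore not be checked on these arrays.

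miR-143 and miR-145 are cut from transcripts of one locus. In the RefSeq annotation of mouse GRCm38.p6, Mir143 and Mir145a both lie inside Carmn, a long non-coding RNA that serves as their host gene, and 0 annotated entries start between them. Serum response factor and myocardin are known to drive the cluster in vascular and visceral smooth muscle. There the miRNAs favour the contractile state, in part by repressing Klf4, Klf5 and Elk1. In whole tissue the pair is read as a mark of vessel walls, airways, capsules and other mesenchyme, and epithelial cells and blood cells hold little of it.

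For 4 other miRNAs the mature sequences are shown from RefSeq (GRCm38.p6), 5′ to 3′, because their probes followed miR-143 and miR-145 most closely, over all arrays or within tissues. Capitals mark the seed, bases 2 to 8, through which a miRNA pairs with its targets. The older names of the chip were read as the arms let-7i-5p, miR-127-3p, miR-199a-3p and miR-27a-3p.
let-7i: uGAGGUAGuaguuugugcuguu
miR-127: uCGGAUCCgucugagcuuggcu
miR-199a*: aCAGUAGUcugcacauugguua
miR-27a: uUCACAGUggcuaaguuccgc
None of the 6 pairs among these 4 sequences shared a seed. Their seeds were not compared with those of other miRNAs on the chip.

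In arbitrary units, the background-subtracted signal of an array summed to 57568 on klotho(-/-) Lung 1, the brightest, and to 4162 on the dimmest, wild-type Liver 1. In mean sum the klotho(-/-) arrays were brighter than the wild-type arrays in liver (1.91-fold), kidney (1.56-fold) and lung (1.38-fold). They were close to them in heart (1.06-fold) and spleen (0.882-fold). The sums of single arrays overlapped in lung, heart and spleen. In lung, klotho(-/-) Lung 2 (49743) lay below wild-type Lung 1 (51604), and wild-type Lung 2 was far dimmer (25953). Signals below are the background-subtracted values as deposited, which are not scaled between arrays. Log2 differences are klotho(-/-) minus wild-type after scaling within a tissue, and adjusted p-values are from limma with Benjamini-Hochberg adjustment over all tested probes. Liver and heart carried their markers. The hepatocyte miRNA miR-122a stood at 3120 to 4196 in klotho(-/-) and 1625 to 2125 in wild-type livers, and the striated muscle list summed to 7586 to 11716 in klotho(-/-) and 9539 to 9810 in wild-type hearts. The klotho(-/-) spleens differed most between their 2 arrays, with a median absolute log2 difference of 0.318 over tested probes, against 0.118 between the wild-type spleens and 0.0649 to 0.0978 between the arrays of the other groups.

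**Figure D1:**
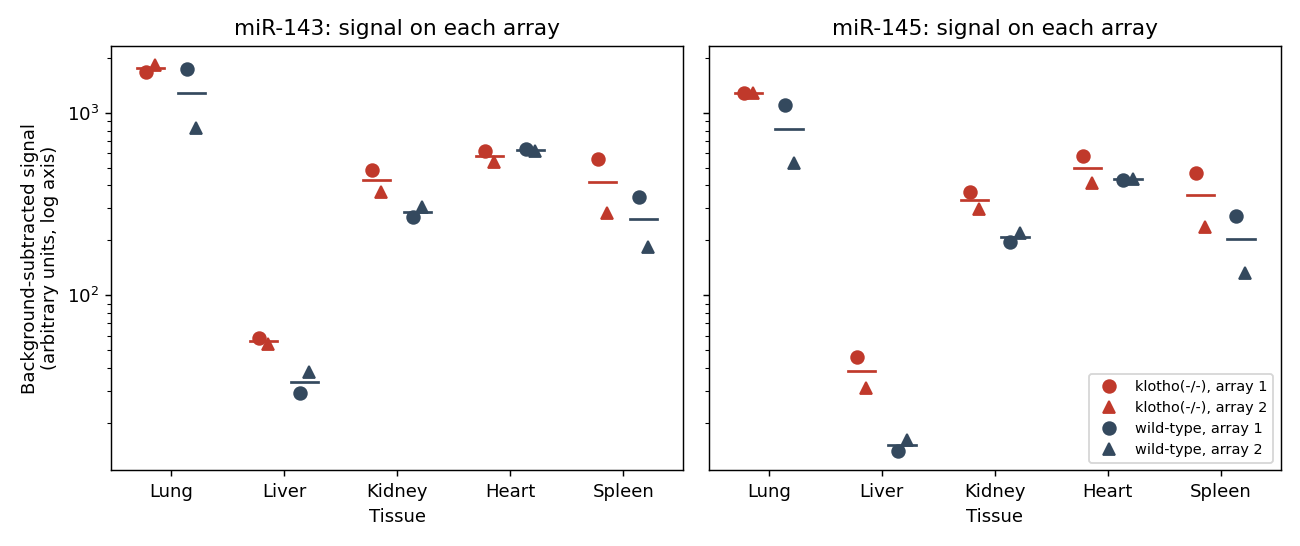
Background-subtracted signal (arbitrary units, log axis) of miR-143 and miR-145 on each of the 20 arrays, by tissue. Circles are array 1 and triangles array 2 of a group, the horizontal line is the mean of 2 arrays, and klotho(-/-) arrays stand left of wild-type arrays. Lung arrays reach 1826 for miR-143 and liver arrays lie at 58 or below.

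After scaling within the tissue, miR-143 and miR-145 were both higher in klotho(-/-) than in wild-type spleens. The study calls its duplicate arrays reproducible except in klotho(-/-) spleen, and proposes individual differences as a possible reason. miR-143 had signals of 559 and 281 in klotho(-/-) spleens, against 344 and 183 in wild-type spleens. These raw signals overlapped, since klotho(-/-) Spleen 2 lay below wild-type Spleen 1, and in each genotype array 1 was the brighter one. As a share of the summed signal of its array, miR-143 took 5.92% and 3.54% in klotho(-/-) spleens and 2.77% and 2.50% in wild-type spleens, without overlap. Of the probes tested in spleen, 3.12% had both klotho(-/-) arrays above both wild-type arrays in raw signal and 25% did so in this share. After scaling its log2 difference was 0.77 ± 0.16 (SE, n = 2 arrays per genotype, limma adjusted p = 0.00183), with a 95% interval of 0.43 to 1.11.

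miR-145 showed the same pattern in spleen. Its signals were 470 and 237 in klotho(-/-) spleens, against 272 and 133 in wild-type spleens. Its share of the summed signal was 4.97% and 2.98% in klotho(-/-) spleens and 2.19% and 1.82% in wild-type spleens. Again the raw signals overlapped and the shares did not. The scaled difference was 0.69 ± 0.14 (SE, n = 2 arrays per genotype, limma adjusted p = 0.00173), with a 95% interval of 0.39 to 0.99. For both miRNAs the SE and interval use the spread of a probe pooled over the 10 groups, not that of the spleen arrays alone. Fitted on the spleen arrays alone, the SE was 0.21 for miR-143 (limma adjusted p = 0.149) and 0.24 for miR-145 (limma adjusted p = 0.206). In both numbered pairs the raw signal was above 1.5-fold, at 1.73 and 1.78 for miR-145 and at 1.63 and 1.54 for miR-143, as for 10.4% of the probes tested in spleen. Among all 96 probes tested there, 7 were called higher, or 7.29%, and both miRNAs were among these 7. This yardstick depended on single arrays, since 16 of 94 probes were called higher without klotho(-/-) Spleen 1, 27 of 87 without klotho(-/-) Spleen 2, 4 of 99 without wild-type Spleen 1 and 5 of 97 without wild-type Spleen 2. In spleen 22.9% of the tested probes were called lower.

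The size of the spleen difference rested in part on klotho(-/-) Spleen 1. Without that array the difference was 0.37 for miR-145 and 0.56 for miR-143. When any one spleen array was left out, values ran from 0.56 to 1.11 for miR-143 and from 0.37 to 1.00 for miR-145. In such a fit the group with a lone array adds nothing to the spread, which comes from the other groups. Whether a call is kept there is therefore no check against the spread of the spleen arrays. The calls were lost with no scaling between arrays, at 0.57 for miR-143 (adjusted p = 0.338) and 0.67 for miR-145 (adjusted p = 0.296), and also when spleen was fitted alone or arrays were weighted. Quantile normalization over all 20 arrays gave larger values, 1.26 for miR-143 and 1.15 for miR-145, both called.

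**Figure D2:**
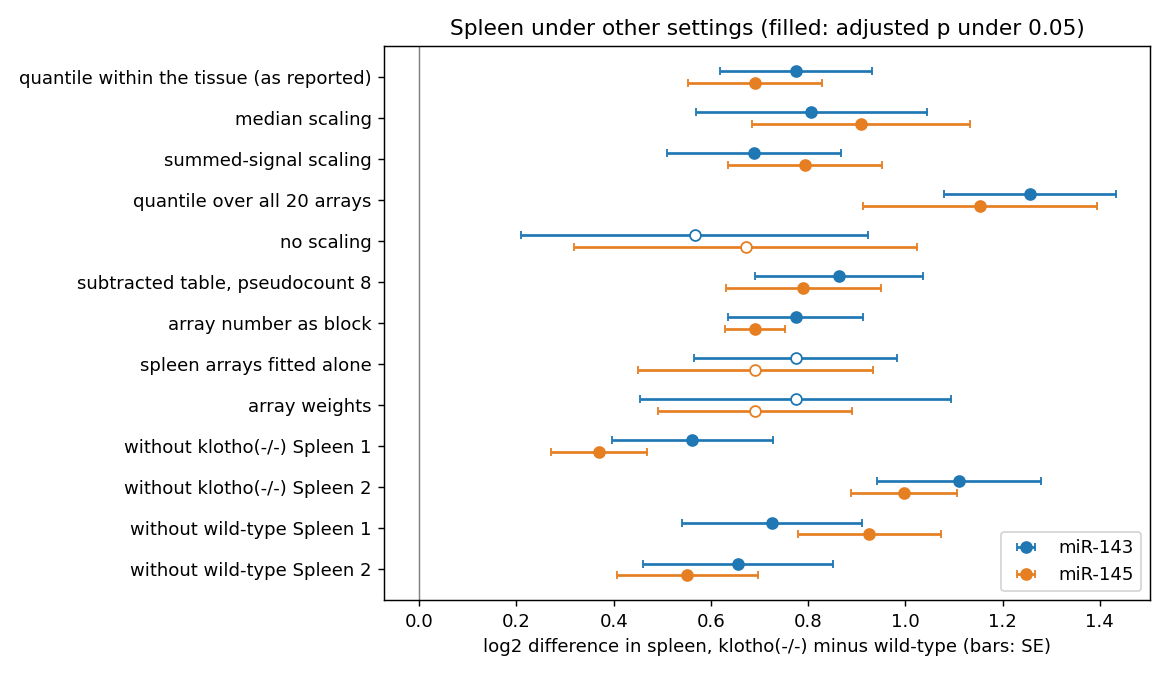
Log2 difference in spleen, klotho(-/-) minus wild-type, of miR-143 and miR-145 under other scalings, other fits and with each spleen array left out. Points are estimates, bars their SE, and filled points have an adjusted p under 0.05. With a spleen array left out, its group adds nothing to the spread, so a filled point there is no check against the spleen spread. All estimates lie above 0, and the open points are those with no scaling, with spleen fitted alone and with array weights.

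Markers of other cell types also differed between the spleens. In a bulk sample more cells of a type and more RNA per cell cannot be told apart. Of the list for fibroblasts and other mesenchyme, 3 of 5 miRNAs were on the chip and tested, and 1 was called higher, beside 7.29% of all probes tested in spleen. That one, miR-199a*, had signals of 111 and 47 in klotho(-/-) spleens, against 47 and 27 in wild-type spleens, and differed by 0.61 ± 0.18 (SE, n = 2 arrays per genotype, limma adjusted p = 0.0225). The klotho(-/-) array 2 equalled wild-type array 1 in its raw signal. The call of miR-199a* was lost without klotho(-/-) Spleen 1 (0.23, adjusted p = 0.0522), without wild-type Spleen 1 (0.51, adjusted p = 0.113) and without wild-type Spleen 2 (0.59, adjusted p = 0.0915). It was also lost with no scaling (0.53, adjusted p = 0.296), array weights (0.0627) and spleen fitted alone (0.423). The list summed to 90 to 230 in klotho(-/-) and 52 to 94 in wild-type spleens, and its median log2 difference was 0.39, beside 0.05 over all probes tested in spleen.

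The endothelial miR-126-3p stood at 95 and 49 in klotho(-/-) spleens, against 89 and 44 in wild-type spleens, so its arrays overlapped. It differed by 0.21 ± 0.12 (SE, n = 2 arrays per genotype, limma adjusted p = 0.182). Its partner miR-126-5p stood at 1 to 2 on all 4 arrays, at or near the floor. The endothelial list summed to 50 to 96 in klotho(-/-) and 46 to 91 in wild-type spleens.

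Of the leukocyte list, 4 of 5 miRNAs were on the chip and 2 were called lower, miR-142-3p and miR-142-5p. miR-142-3p had signals of 129 and 259 in klotho(-/-) spleens, against 503 and 324 in wild-type spleens. miR-142-5p had 63 and 159, against 264 and 185. For both, klotho(-/-) Spleen 1 was the lower of the klotho(-/-) arrays. Of all probes tested in spleen, 22.9% were called lower. The signals of miR-150 (67 and 163 in klotho(-/-), 192 and 73 in wild-type spleens) overlapped. Those of miR-155 (8 and 15, against 27 and 10) did so too, and neither was called. The list summed to 267 and 596 on klotho(-/-) Spleen 1 and Spleen 2, and to 592 to 986 in wild-type spleens. It took 2.83% of the summed signal on klotho(-/-) Spleen 1 and 7.51% on klotho(-/-) Spleen 2, against 7.95% to 8.09% in wild-type spleens, so that the low share was that of 1 array. The probe for red cell precursors, miR-144, stood at 12 to 13 in klotho(-/-) and 263 to 338 in wild-type spleens. Epithelial miRNAs summed to 15 to 145 in klotho(-/-) and 10 to 23 in wild-type spleens, and the islet miRNA miR-375 stood at 13 to 130 in klotho(-/-) and 5 in wild-type spleens, with both high values on klotho(-/-) Spleen 1. The striated muscle list summed to 12 to 22 in klotho(-/-) and 13 to 20 in wild-type spleens, with 3 of its 5 miRNAs at a signal of 3 or below on both klotho(-/-) arrays, and the hepatocyte miR-122a stood at 9 in klotho(-/-) and 4 in wild-type spleens. The part of these cell types in the spleen difference of miR-143 and miR-145 was not tested.

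In the other tissues neither miRNA was called. In lung, miR-143 had signals of 1679 and 1826 in klotho(-/-) mice, against 1735 and 823 in wild-type mice. In the same lungs miR-145 had 1292 and 1289 in klotho(-/-) mice, against 1100 and 529 in wild-type mice. The miR-143 signals overlapped and those of miR-145 did not, as for 32.7% of the 113 probes tested in lung. The array wild-type Lung 2 was low for both, and its summed signal was 25953, against 49743 to 57568 on the other lung arrays. After scaling, miR-143 differed by 0.02 ± 0.16 (adjusted p = 0.979, 95% interval -0.32 to 0.36). miR-145 differed by 0.13 ± 0.14 (adjusted p = 0.712, 95% interval -0.17 to 0.43). In lung 4.42% of tested probes were called higher.

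The liver held the lowest signals of both. miR-143 had 58 and 54 in klotho(-/-) livers, against 29 and 38 in wild-type livers. miR-145 had 46 and 31 in klotho(-/-) livers, against 14 and 16 in wild-type livers. The genotypes did not overlap for either miRNA, but this held for 82% of the 61 probes tested in liver, where both klotho(-/-) arrays were brighter in sum. Scaled, the direction of miR-143 turned, with a difference of -0.16 ± 0.16 (adjusted p = 1, 95% interval -0.50 to 0.18). That of miR-145 was 0.17 ± 0.14 (adjusted p = 1, 95% interval -0.13 to 0.47). The ratio of raw signals in both numbered pairs was above 1.5, the fold limit used in the study, for miR-145 (3.29 and 1.94) and not for miR-143 (2 and 1.42). In liver 18% of the tested probes passed this limit. By this limit the study lists miR-145 as increased in klotho(-/-) liver.

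In kidney, miR-143 had signals of 489 and 370 in klotho(-/-) mice, against 268 and 306 in wild-type mice. In the same kidneys miR-145 had 370 and 298 in klotho(-/-) mice, against 197 and 219 in wild-type mice. As in liver the raw signals did not overlap, and neither did those of 78% of the 91 tested probes. Both miRNAs held the same places in the brightness order of the probes in both genotypes, so that the scaled difference was 0.00 for each, with a 95% interval of -0.34 to 0.34 for miR-143 and of -0.30 to 0.30 for miR-145.

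In heart, miR-143 had signals of 622 and 538 in klotho(-/-) mice, against 635 and 615 in wild-type mice. miR-145 had 582 and 415 in klotho(-/-) hearts, against 430 and 434 in wild-type hearts. The genotypes overlapped for both. The scaled differences were -0.14 ± 0.16 for miR-143 (adjusted p = 0.759, 95% interval -0.48 to 0.20) and 0.14 ± 0.14 for miR-145 (adjusted p = 0.759, 95% interval -0.16 to 0.44). Calls of higher signal made up 2% of tested probes in heart, 3.28% in liver and 3.3% in kidney. With 2 arrays per genotype these intervals leave room for differences of about the size of their bounds in either direction.

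**Figure D3:**
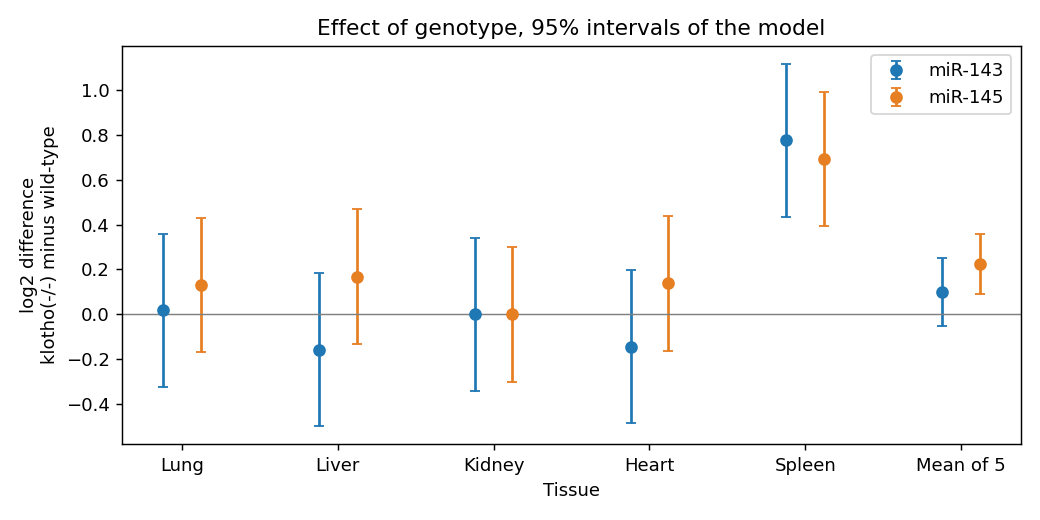
Log2 difference, klotho(-/-) minus wild-type, of miR-143 and miR-145 in each tissue and as the mean of 5 tissues. Points are estimates of the model and bars their 95% intervals, with the spread of a probe pooled over the 10 groups. The spleen intervals, 0.43 to 1.11 and 0.39 to 0.99, lie above 0, as does the mean over tissues of miR-145 at 0.23.

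The effect of genotype in spleen was set against that in the other 4 tissues. Spleen was singled out with its earlier results known. For miR-143 the spleen difference exceeded the mean of the others by 0.84 ± 0.17 (SE, limma adjusted p = 0.00321). For miR-145 it did so by 0.58 ± 0.15 (SE, limma adjusted p = 0.0128). Of the 89 probes tested in at least 3 tissues, 3.37% were called higher by this contrast, both miRNAs among them. The call of miR-145 was lost without klotho(-/-) Spleen 1 (0.26, adjusted p = 0.0955) or wild-type Spleen 2 (0.44, adjusted p = 0.0672). Under median scaling within a tissue neither miRNA passed, with adjusted p-values of 0.0534 for miR-143 and 0.0638 for miR-145.

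The F test that all 5 tissue differences are equal passed for miR-143 (F = 6.10, adjusted p = 0.0400) and not for miR-145 (F = 3.79, adjusted p = 0.113), and 16.9% of the 89 probes passed it. With the array number as a replicate block within each tissue the 2 calls changed places, with F = 7.79 for miR-143 (adjusted p = 0.0567) and F = 18.4 for miR-145 (adjusted p = 0.0141). Of the 20 fits that each left out 1 array, 5 passed for miR-143 and 2 for miR-145, so the F test depended on single arrays for both.

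Over all 5 tissues, miR-145 was higher in klotho(-/-) mice by a mean of 0.23 ± 0.06 (SE, limma adjusted p = 0.0192, 95% interval 0.09 to 0.36). Its scaled values tied in kidney and did not overlap in the other 4 tissues. Of the tested probes, 16.7% in spleen, 19% in heart, 22.1% in lung and 11.5% in liver had both klotho(-/-) arrays above both wild-type arrays in the same way. For miR-143 the mean was 0.10 ± 0.07 (SE, limma adjusted p = 0.335). Of the 89 probes, 7.87% were called higher in this mean. An exact two-sided permutation of genotypes within tissues, over 7776 arrangements, gave p = 0.00154 for miR-145 and p = 0.389 for miR-143. In this test the tissues of 1 mouse count as independent. With whole mice as units only 6 arrangements exist and p cannot fall below 0.333. Without the spleen arrays the mean of miR-145 was 0.11 (adjusted p = 0.0502) and that of miR-143 was -0.071 (adjusted p = 0.614), so the call for miR-145 was lost without spleen.

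The signal of miR-145 relative to that of miR-143 on the same array gave a measure that needs no scaling between arrays. It shows unequal change of the 2 probes, not the level of one against the other. In lung the ratio was 0.770 and 0.706 in klotho(-/-) mice, against 0.634 and 0.643 in wild-type mice. In liver it was 0.793 and 0.574 in klotho(-/-) mice, against 0.483 and 0.421 in wild-type mice. In both tissues the genotypes did not overlap, and the liver values rest on miR-145 signals of only 14 to 46.

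In kidney the ratio was 0.757 and 0.805 in klotho(-/-) mice, against 0.735 and 0.716 in wild-type mice. In heart it was 0.936 and 0.771 in klotho(-/-) mice, against 0.677 and 0.706 in wild-type mice. In spleen it was 0.841 and 0.843 in klotho(-/-) mice, against 0.791 and 0.727 in wild-type mice. Thus all 10 klotho(-/-) arrays had a higher ratio than each wild-type array of their tissue. Among 57 probes that could be set against miR-143 in this way, only miR-145 was higher in 5 of 5 tissues, which is 1.75%, and miR-29a and miR-29b were so in 4 tissues.

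The mean log2 difference of the ratio was 0.27, with an exact two-sided permutation p of 0.000257 within tissues, the smallest that 7776 arrangements can give. This form of the ratio was chosen after the values were seen. In the planned form, the scaled log2 values with an offset of 50 added, the difference of miR-145 minus miR-143 was 0.13 (exact permutation p = 0.0826) and did not pass, with the genotypes apart in 2 of 5 tissues. Under median scaling within a tissue it was 0.17 (exact permutation p = 0.000257) and with no scaling 0.14 (exact permutation p = 0.00103). Apart from the offset, neither setting changes the ratio of 2 probes on an array, so neither is a check separate from the unscaled ratio. In all these permutations the tissues of 1 mouse count as independent. With whole mice as units p cannot fall below 0.333. In mean sum the klotho(-/-) arrays were also brighter in liver (1.91-fold), kidney (1.56-fold) and lung (1.38-fold). Their mean sum was close in heart (1.06-fold) and lower in spleen (0.882-fold), and single arrays overlapped in lung, heart and spleen. The part of brightness in the ratio was not tested.

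**Figure D4:**
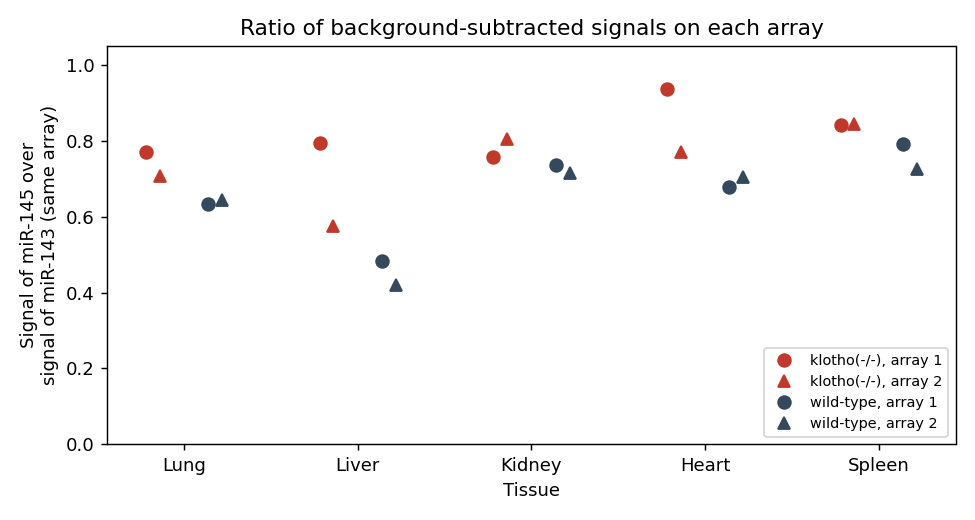
Ratio of the background-subtracted signal of miR-145 to that of miR-143 on the same array (no unit, axis from 0), by tissue. Circles are array 1 and triangles array 2 of a group, with klotho(-/-) arrays left of wild-type arrays. In each tissue both klotho(-/-) arrays lie above both wild-type arrays, the closest being 0.757 against 0.735 in kidney.

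The levels of both miRNAs differed between tissues. In raw signal, genotypes together, miR-143 ran from 823 to 1826 in lung, 538 to 635 in heart, 268 to 489 in kidney, 183 to 559 in spleen and 29 to 58 in liver. miR-145 ran from 529 to 1292 in lung, 415 to 582 in heart, 197 to 370 in kidney, 133 to 470 in spleen and 14 to 46 in liver. For both, lung had the highest median, all heart arrays lay above all kidney arrays, and liver lay below every array of the other tissues. Lung and heart overlapped for miR-145, with wild-type Lung 2 at 529 and klotho(-/-) Heart 1 at 582. Spleen overlapped with kidney, and its brightest array, klotho(-/-) Spleen 1, lay within the range of heart.

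After quantile normalization over all 20 arrays the order of the mean log2 level was spleen, lung, heart, kidney and liver for both. Liver minus the mean of the other 4 tissues was -1.49 ± 0.10 for miR-143 (limma adjusted p = 4.35e-08) and -1.76 ± 0.13 for miR-145 (1.53e-07), and 41.1% of 129 probes were called lower there. Spleen minus the others was 1.29 ± 0.10 for miR-143 (1.63e-07) and 1.20 ± 0.13 for miR-145 (4.44e-06), and 32.6% of probes were called higher there. Lung minus the others was 0.39 ± 0.13 for miR-145 (0.0256) and 0.22 ± 0.10 for miR-143 (0.0682), and 30.2% of probes were called higher there. The lung call of miR-145 was lost without any one of the 4 lung arrays, with adjusted p-values of 0.0898 without klotho(-/-) Lung 1, 0.101 without klotho(-/-) Lung 2, 0.0919 without wild-type Lung 1 and 0.0912 without wild-type Lung 2.

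Of the neighbours in that order, lung and spleen differed, by -0.85 ± 0.13 for miR-143 (limma adjusted p = 5.74e-05) and -0.65 ± 0.17 for miR-145 (0.00504) as lung minus spleen. Lung and heart did not differ beyond their spread, with 0.04 ± 0.13 for miR-143 and 0.06 ± 0.17 for miR-145 as lung minus heart. Kidney minus heart was -0.28 ± 0.13 for miR-143 (0.0977) and -0.37 ± 0.17 for miR-145 (0.115), which did not pass. Liver minus kidney was -1.05 ± 0.13 for miR-143 (1.97e-05) and -1.29 ± 0.17 for miR-145 (4.59e-05), so that in this scaling only the top and the bottom of the order stood apart from their neighbours. In either direction, 62% of the 129 probes were called between lung and spleen, 34.1% between lung and heart, 38.8% between kidney and heart and 48.8% between liver and kidney.

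The order above liver depended on the scaling. Under median scaling kidney minus heart was called, at -0.97 for miR-143 (limma adjusted p = 1.61e-05) and -0.96 for miR-145 (8.93e-06), and lung minus spleen was not, at 0.085 (0.521) and -0.11 (0.336). With no scaling lung minus heart was called, at 1.20 for miR-143 (0.000468) and 1.03 for miR-145 (0.00146), and with summed-signal scaling it was called for miR-143 (0.41, 0.0203). With no scaling, spleen minus the others was -0.25 for miR-143 and -0.14 for miR-145, neither called, and lung was the highest tissue. On the wild-type arrays alone, spleen minus the others was 0.64 for miR-143 (adjusted p = 0.00105) and 0.69 for miR-145 (0.00222), while lung minus spleen was -0.26 (0.145) and -0.12 (0.548). Liver minus the others stayed between -1.28 and -2.70 for miR-143 and between -1.55 and -2.64 for miR-145 with no, median or summed-signal scaling and on wild-type arrays alone.

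**Figure D5:**
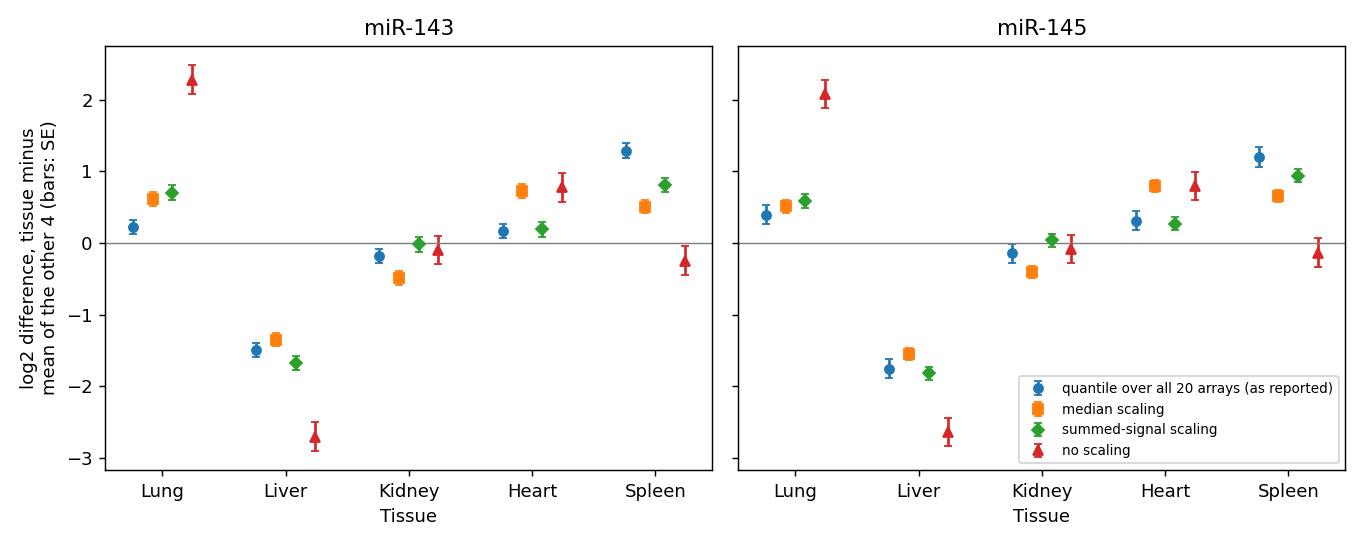
Log2 difference of each tissue minus the mean of the other 4 for miR-143 and miR-145, under 4 scalings of the 20 arrays. Points are estimates and bars their SE. Liver lies below 0 under every scaling shown, and spleen at 1.29 and 1.20 as reported moves to -0.25 and -0.14 with no scaling.

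The 2 miRNAs moved together across arrays. Over the 20 arrays their log2 levels correlated with Pearson's r = 0.959 and Spearman's rho = 0.883, given as a description, since arrays of a tissue and probes of an array share their source. Without the 2 arrays farthest from the median of miR-143, r was 0.940. Within tissues, after tissue means were taken off, r was 0.761 with all 20 arrays and -0.20 for the 16 arrays without spleen, so that the likeness within tissues rested on the spleen arrays.

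Among the other 127 probes compared over the 20 arrays, the levels of let-7i were most like the pair, with a mean r of 0.792 to miR-143 and miR-145. miR-127, made from an imprinted cluster, followed at 0.712 and miR-199a*, a miRNA of mesenchyme, at 0.711. miR-150, a miRNA of mature lymphocytes, had 0.646 and miR-151 had 0.619. Within tissues, over 56 probes, miR-27a was first at 0.789, and its r without spleen was 0.344. It was followed by miR-23b from a related cluster at 0.729, by the endothelial miR-126-3p at 0.687, by miR-125b at 0.666 and by miR-26a at 0.571. Without spleen these 4 had mean r values of -0.15 to 0.257.

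In spleen, miR-23b differed by 0.37 ± 0.11 (SE, n = 2 arrays per genotype, limma adjusted p = 0.0246) and miR-27a by 0.30 ± 0.11 (SE, n = 2 arrays per genotype, limma adjusted p = 0.0492). Of all probes tested in spleen, 7.29% were called higher. Both miRNAs were picked for likeness to the pair on these same arrays, and that likeness was lower without spleen. Their direction in spleen is therefore no separate result. Each call was lost without klotho(-/-) Spleen 1 (0.17 for miR-23b and 0.12 for miR-27a), without wild-type Spleen 1 (0.39 and 0.40 in the same order) and without wild-type Spleen 2 (0.33 and 0.27). Both calls were also lost under median scaling (adjusted p = 0.190 for miR-23b and 0.184 for miR-27a), summed-signal scaling (0.194 for each) and no scaling (0.857 for each), with no filter, with array weights and with spleen fitted alone.

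Other miRNAs known to act on the phenotype of smooth muscle cells were followed as a list of 11, of which 8 were on the chip. In spleen 5 of these were tested and none was called in either direction, with a median log2 difference of 0.14, beside 0.05 over all probes tested. In kidney (5 tested) and heart (7 tested) none was called either, where 7.69% and 5% of all tested probes were called. In lung 1 of 7 was called lower, miR-146, an inducible brake on inflammatory signalling, with signals of 162 and 154 in klotho(-/-) and 244 and 101 in wild-type lungs. These overlapped, and the scaled difference was -0.35 ± 0.08 (SE, limma adjusted p = 0.0212), where 3.54% of all tested probes were called lower. The call was lost without klotho(-/-) Lung 1 (adjusted p = 0.215), klotho(-/-) Lung 2 (0.0849) or wild-type Lung 1 (0.122), under median scaling (0.0676) and with no scaling (0.957). In liver 1 of 4 was called lower, miR-31, with overlapping signals of 24 and 27 in klotho(-/-) and 22 and 29 in wild-type livers. Its scaled difference was -0.26 ± 0.06 (SE, limma adjusted p = 0.0315), where 1.64% of tested probes were called lower. With no scaling its difference was 0.00029, and the call was also lost without klotho(-/-) Liver 1 (-0.13, adjusted p = 0.591), wild-type Liver 1 (adjusted p = 0.176) or wild-type Liver 2 (0.123). Over all tissues 1 of 5 tested members was higher, miR-26a at 0.26 ± 0.09 (SE, limma adjusted p = 0.0434), and 1 was lower, miR-146 at -0.19 ± 0.04 (SE, limma adjusted p = 0.00235), beside 7.87% of probes called higher and 21.3% called lower. The call of miR-26a held in 5 of 20 fits that each left out 1 array and was lost without spleen (0.23, adjusted p = 0.1004). That of miR-146 held in 20 of 20 and was lost with no scaling (-0.10, adjusted p = 0.501).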

How the data were processed

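Total RNA was extracted with TRIzol, and small RNA was isolated, labelled with 1 dye and hybridized, 1 array per sample. The authors deposited 2 tables of probe intensity for the same 20 arrays. The first is not background subtracted. For the second, a constant had been subtracted from each array by the authors, with rounding and a floor but no scaling between arrays. Scanner and image software are not given in the sources used here. Signals in the text come from this second table.

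The first table was background corrected with normexp (offset 50), quantile-normalized over the 4 arrays of each tissue and taken to log2 with the offset added, which draws differences of dim probes toward 0. Levels between tissues used quantile normalization over all 20 arrays. Testing in a tissue required a mean corrected signal of at least 10. One limma model (version 3.58.1, R 4.3.3; lmFit, eBayes with a trend) held 10 groups, with 10 residual and a median of 2.14 prior degrees of freedom, so the spread of a probe was pooled over tissues. Benjamini-Hochberg adjustment ran over the probes of each contrast, with a threshold of 0.05. The number of arrays, 2 per group, limits the precision. The steps were tested on simulated data.

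miR-143 and miR-145, the lists and the contrasts were chosen with earlier results of these data known. Besides both, the text names the 5 probes most correlated with them over the arrays and the 5 within tissues, and members of the lists. miR-29a and miR-29b were named after their values were seen. Deviations from the group mean of arrays with the same number correlated between genotypes at r = 0.230 (lung), 0.548 (liver), 0.475 (kidney), 0.107 (heart) and 0.371 (spleen). What same-numbered mice share is not stated, so this pairing was judged from the values, and a replicate block for the number was tried as an alternative. Other alternatives were median, summed-signal and no scaling, the second table with a pseudocount of 8, offsets of 16 and 100, other filters, a random block for the mouse, array weights, each tissue alone, the methods' test, wild-type arrays alone, and leaving out the spleen or each array. Summed-signal scaling, the unscaled ratio and the settings for single list members were added after the data were seen. A lone array of a group took its spread from the other groups.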

Additional observations from a re-analysis of the deposited data

Results flagged for a closer look

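The effect of genotype differed between tissues by a test of the difference itself for 3 values. Among the 89 probes tested in at least 3 tissues, spleen minus the other tissues was called higher for 3.37%, and the F test passed for 16.9%. Spleen had been singled out with its earlier results known. For miR-143 the klotho(-/-) minus wild-type difference in spleen exceeded the mean of the other 4 tissues by 0.84 (limma adjusted p = 0.00321), and for miR-145 by 0.58 (limma adjusted p = 0.0128). The F test over all 5 tissues flagged miR-143, with F = 6.10 (limma adjusted p = 0.0400), a call that was lost with the replicate block (F = 7.79, limma adjusted p = 0.0567) and held in 5 of 20 fits that each left out 1 array. Spleen was also the tissue in which the 2 klotho(-/-) arrays were least alike, with r = 0.778 between them against 0.962 between the wild-type spleen arrays. The contrast of miR-143 ran from 0.63 to 1.18 when any one array was left out. It missed the threshold under median scaling within a tissue (0.81, limma adjusted p = 0.0534). That of miR-145 was lost without klotho(-/-) Spleen 1 (0.26) or wild-type Spleen 2 (0.44).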

How the results depend on the processing

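Both spleen calls kept their direction under each alternative run and were lost with no scaling (0.57 for miR-143, 0.67 for miR-145), and with the value unchanged at 0.77 and 0.69 under array weights (adjusted p = 0.136 for miR-143 and 0.0540 for miR-145), with spleen fitted alone (0.149 and 0.206), and by the methods' t-test, unadjusted (0.0664 and 0.149) or with Benjamini-Hochberg adjustment (0.349 and 0.430). That test gave 12 probes under 0.05 before and 0 after adjustment among 96 in spleen. Pooled over the groups, the SE was 0.16 for miR-143 and 0.14 for miR-145. In the same order it was 0.32 and 0.20 with array weights, 0.21 and 0.24 with spleen fitted alone, and 0.21 and 0.30 in the t-test. What made the spread larger in spleen was not tested. The replicate block kept both spleen calls. Spleen minus the other tissues missed the threshold under median scaling (0.81 for miR-143, 0.72 for miR-145) and no scaling (0.25 and 0.20). The F test of miR-143 missed it under median scaling (2.65), no scaling (0.602), summed-signal scaling (3.68), no filter (6.10, adjusted p = 0.0765), the replicate block (7.79) and without spleen (0.437), and that of miR-145 passed with the replicate block (18.4). The block changed no other call between genotypes. The mean over tissues missed the threshold for miR-145 with no scaling (0.51) and without spleen (0.11), and that of miR-143 turned to -0.071 without spleen. miR-143 in liver turned to 0.34 with no scaling.

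Leaving out each array gave, for miR-143 and then miR-145, -0.26 to 0.26 and 0.09 to 0.16 in lung, -0.24 to -0.09 and 0.13 to 0.22 in liver, 0 throughout and -0.03 to 0.03 in kidney, -0.25 to -0.06 and 0.06 to 0.21 in heart, and 0.56 to 1.11 and 0.37 to 1.00 in spleen. miR-143 in lung turned to -0.26 without klotho(-/-) Lung 2 and to -0.02 without wild-type Lung 2. The mean over tissues ran from 0.04 to 0.17 and 0.16 to 0.29, spleen minus the others from 0.63 to 1.18 and 0.26 to 0.89, and F from 3.21 to 11.9 and 2.11 to 14.9. The difference of miR-145 minus miR-143 ran from 0.086 to 0.18 and passed without klotho(-/-) Lung 2 (0.17) or wild-type Spleen 1 (0.18). It also passed under median scaling (0.17), no scaling (0.14), without spleen (0.18) and as the unscaled ratio (0.27). These permutations count the tissues of 1 mouse as independent. Median and no scaling change the ratio on an array only through the offset, so they are no check separate from the unscaled ratio.

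Levels between tissues moved more, and calls between neighbouring tissues were gained as well as lost. Under median scaling of all arrays, miR-143 was called in lung (0.61), kidney (-0.49) and heart (0.73) and miR-145 in kidney (-0.40) and heart (0.79), while lung minus heart turned to -0.091 and -0.23, heart minus spleen to 0.18 and 0.11, and lung minus spleen of miR-143 to 0.085. With no scaling, miR-143 was called in lung (2.28) and heart (0.78) and miR-145 in heart (0.79), spleen turned to -0.25 and -0.14, and lung, heart and kidney minus spleen turned to 2.02, 0.82 and 0.12 for miR-143 and to 1.77, 0.74 and 0.036 for miR-145. On wild-type arrays alone miR-143 was called in lung (0.31) and heart (0.41) and miR-145 in heart (0.38), lung minus heart of miR-143 turned to -0.079, and kidney of miR-145 to 0.031. Summed-signal scaling called miR-143 in lung (0.70) and miR-145 in heart (0.27) and turned kidney of miR-145 to 0.033. The second table (0.41) and an offset of 16 (0.38) called miR-145 in heart. Leaving out each array gave, against the other tissues, 0.093 to 0.31 and 0.34 to 0.46 in lung, -1.54 to -1.44 and -1.84 to -1.69 in liver, -0.22 to -0.15 and -0.20 to -0.09 in kidney, 0.10 to 0.26 and 0.25 to 0.37 in heart, and 1.18 to 1.42 and 0.97 to 1.45 in spleen. Lung minus heart of miR-143 ran from -0.072 to 0.15.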
